A study of Mus musculus with 90 samples.

Results

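The cytochrome P450 family is described here as 66 genes of the 55011 symbols counted. A symbol had to consist of Cyp, a number, letters and a number, and its level had to reach a mean of 1 CPM in liver or in any group of sorted muscle mesenchymal stromal cells (MmSCs). Levels are in CPM, a gene's counts over those of its library, with TMM factors within each cohort. Of 94 symbols of this form, 28 stayed under the threshold. Liver met it for 59 members and MmSCs for 32, with 25 members in both, 34 in liver only and 7 in MmSCs only. The form leaves out Cyp4a12a, Cyp3a41a and Cyp51. Since levels in liver and MmSCs chose the members, these levels are given as a description, with no test. Just inside the threshold lay Cyp4f39 (1.04 CPM in liver) and Cyp3a16 (1.06 CPM in MmSCs after 4 h of Yoda1), and just outside it Cyp2g1 (0.935 CPM in liver) and Cyp2c65 (0.809 CPM in the same Yoda1 group).

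The series examined Piezo1, a mechanically gated cation channel, in Pdgfra-expressing stromal cells of mouse muscle, by RNA sequencing of 90 libraries in 29 groups. FL stands for Pdgfra-Cre with floxed Piezo1 and WT for Pdgfra-Cre with intact Piezo1, so both genotypes carry the Cre, which acts in cells that express Pdgfra or descend from such cells. The titles of the TA libraries say Piezo1 KO where FL is written here, and the titles of the TA, heart and liver libraries name no Cre. Whole-tissue libraries came from perfused livers of uninjured sedentary mice (SED; FL and WT, 4 libraries each), from perfused hearts of FL and WT mice at 3 days after cardiotoxin (CTX) in skeletal muscle and of uninjured SED mice (day 0; 3 each), from uninjured SED quadriceps of FL and WT mice (3 each), and from tibialis anterior (TA) muscle of FL and WT mice on days 1, 3 and 7 after CTX (4 each on day 1 and 3 each later). MmSC libraries of 1000 sorted cells from hindlimb muscle came from FL and WT mice 1 day after CTX, from FL and WT mice 1 day after acute exercise (AEX) and their SED controls, from mice after AEX or exercise training (EXT) with SED controls, titled WT with no Cre named, and from sorted cells cultured briefly with Yoda1 or vehicle. Yoda1, an agonist of Piezo1, was used at 25 µM for 2 h in cells of WT mice (2 libraries against 3 of vehicle) and for 4 h and 6 h in cells with no genotype label (3 libraries each, with 3 of vehicle). Mice of the first AEX and the EXT cohorts were 8 to 10 weeks old, and no age is given in the sources used here for the others. No label ties a replicate to a separate animal, so p-values measure the spread between these samples, which may in part be technical.

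P450 enzymes are haem proteins that insert an oxygen atom into their substrate. Most sit in the endoplasmic reticulum and take electrons from the reductase Por, while a few work in mitochondria with ferredoxin. The liver holds the most, where members with broad substrate ranges clear drugs and other foreign compounds, and others make bile acids from cholesterol, oxidise fatty acids, or activate and remove steroids, vitamin D and retinoic acid.

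Total counts ran from 27461930 to 38376123 in liver and from 27925309 to 37148962 in heart, against 4051973 to 10226407 in muscle and 1806248 to 10258234 in MmSCs. The 6 hepatocyte markers summed to between 69692 and 121932 CPM in the livers, and the 6 stromal markers to between 17555 and 54882 CPM in MmSCs. All 8 livers carried Y-linked transcripts (78.7 to 106.9 CPM over 4 genes) and Xist stayed at 0.767 CPM or less. One heart library, FL day 3 replicate 1, stood apart with 55.5 CPM of Y-linked transcripts against 136 to 160 CPM in the other 11. In the first AEX cohort, replicate 3 of both groups stood apart in sex-linked transcripts. Xist measured 352, 309 and 0.159 CPM in AEX replicates 1, 2 and 3, against 382, 379 and 0.545 CPM in SED replicates 1, 2 and 3. Ddx3y, on the Y chromosome, measured 0, 0 and 34.4 CPM in the AEX replicates, against 0, 0 and 46.5 CPM in the SED replicates. Piezo1 was not called lower in FL than in WT samples in any of 10 comparisons, with log2 differences between -0.29 and 0.54. The labels do not name the deleted exons, so a count over the whole gene does not check the labels.

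Promoters of the liver-only members held fewer CpG dinucleotides than the median promoter. RefSeq promoters of GRCm38.p6, 250 bases before to 50 after the start site, were found for 52 members. The median number of CpG in 300 bases was 2 over 27 liver-only members and 5 over the 19 members that met the threshold in both, and 3 over 6 MmSC-only members, against 11 over all 20542 promoters. Shown are the 200 bases before the RefSeq start of the pair of members with the highest CPM in liver (Cyp2e1, Cyp3a11), of a member that met the threshold in MmSCs only (Cyp1b1), and of one abundant in every tissue (Cyp27a1), 5′ to 3′ along the gene, with CpG in capitals. The GENCODE start lies 80 bases upstream of the RefSeq one for Cyp2e1 and 110 bases upstream for Cyp3a11.
Cyp2e1 (chr7:140763619-140763818, plus strand): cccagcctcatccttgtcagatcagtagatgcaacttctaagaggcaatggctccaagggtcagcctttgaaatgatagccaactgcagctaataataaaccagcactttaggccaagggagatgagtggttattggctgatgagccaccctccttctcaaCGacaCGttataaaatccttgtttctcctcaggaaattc
Cyp3a11 (chr5:145879855-145880054, minus strand): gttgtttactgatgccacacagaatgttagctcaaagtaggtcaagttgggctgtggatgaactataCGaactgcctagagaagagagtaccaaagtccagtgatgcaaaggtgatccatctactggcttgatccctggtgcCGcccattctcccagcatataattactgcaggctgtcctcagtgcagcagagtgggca
Cyp1b1 (chr17:79715062-79715261, minus strand): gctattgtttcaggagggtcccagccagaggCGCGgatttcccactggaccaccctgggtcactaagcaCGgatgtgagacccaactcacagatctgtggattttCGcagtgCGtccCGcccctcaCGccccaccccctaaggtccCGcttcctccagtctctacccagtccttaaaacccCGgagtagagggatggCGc
Cyp27a1 (chr1:74713335-74713534, plus strand): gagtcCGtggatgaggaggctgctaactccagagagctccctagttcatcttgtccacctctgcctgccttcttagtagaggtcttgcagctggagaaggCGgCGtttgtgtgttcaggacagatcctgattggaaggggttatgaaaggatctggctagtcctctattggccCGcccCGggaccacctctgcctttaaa
These windows hold 2, 2, 10 and 5 CpG in the order shown.

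Short motifs were searched on both strands of the same 300 bases. TATAAA, the TATA box, stood in 17 of 27 liver-only promoters (63.0%), in 7 of 19 of members in both (36.8%) and in 1 of 6 MmSC-only promoters (16.7%), against 13.2% of all promoters. AAAGTCC, the core of the site of the hepatocyte factor HNF4A, stood in 8 (29.6%), 2 (10.5%) and 1 (16.7%) of the same groups, against 4.18% of all. The 2 were Cyp3a11 and Cyp8b1, and the 1 was Cyp3a16. Cyp3a11 (highest MmSC group mean 1.21 CPM) and Cyp3a16 (1.06 CPM) each met the threshold in only 1 MmSC group, so their class rests on low levels. Cyp8b1 met it in 11 MmSC groups. GTTAAT, a half-site of HNF1, stood in 7 of the liver-only promoters (25.9%) and in 0 of the others, against 6.53% of all. GCGTG, the core of the AHR response element, stood in 3 (11.1%), 7 (36.8%) and 1 (16.7%), against 36.5% of all, and CCAAT in 15 (55.6%), 9 (47.4%) and 1 (16.7%), against 38.2%. TATAAA and AAAGTCC can overlap by 3 bases. Median G and C content was 45.7%, 54.0% and 55.8% in the liver-only, both and MmSC-only promoters, against 55% over all promoters. Its part in the matches was not tested. Matches are descriptions of letters, and paralogs share ancestry, so their promoters are not independent. The AAAGTCC matches of Cyp8b1, Cyp2c70, Cyp3a11 and Cyp2c40, 4 members whose liver levels are given below, are shown on the strand that reads AAAGTCC, with those bases in capitals.
Cyp8b1 (chr9:121916355-121916381, minus strand): gcctctgagcAAAGTCCaagggcagga
Cyp2c70 (chr19:40187333-40187359, minus strand): ggtcaaactcAAAGTCCaaactctgtg
Cyp3a11 (chr5:145879946-145879972, minus strand): agagagtaccAAAGTCCagtgatgcaa
Cyp2c40 (chr19:39812842-39812868, minus strand): tcattgagacAAAGTCCatttggaaga
They lie 66, 63, 108 and 44 bases before the start site in the order shown.

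The members took 2.44% to 3.73% of all counts in liver, against 0.0158% to 0.0741% in any other library. In liver 9 members reached 1000 CPM, 22 lay between 100 and 1000 CPM, 14 between 10 and 100 CPM, 14 between 1 and 10 CPM, and 7 under 1 CPM. The Cyp2c subfamily (13 members) made up 21.01% of the members' summed CPM in liver, Cyp2e1 20.7%, Cyp3a (6 members) 14.5% and Cyp2d (6 members) 13.1%. The map of group means shows this block of liver-only rows beside a smaller set read in every tissue.

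**Figure D1:**
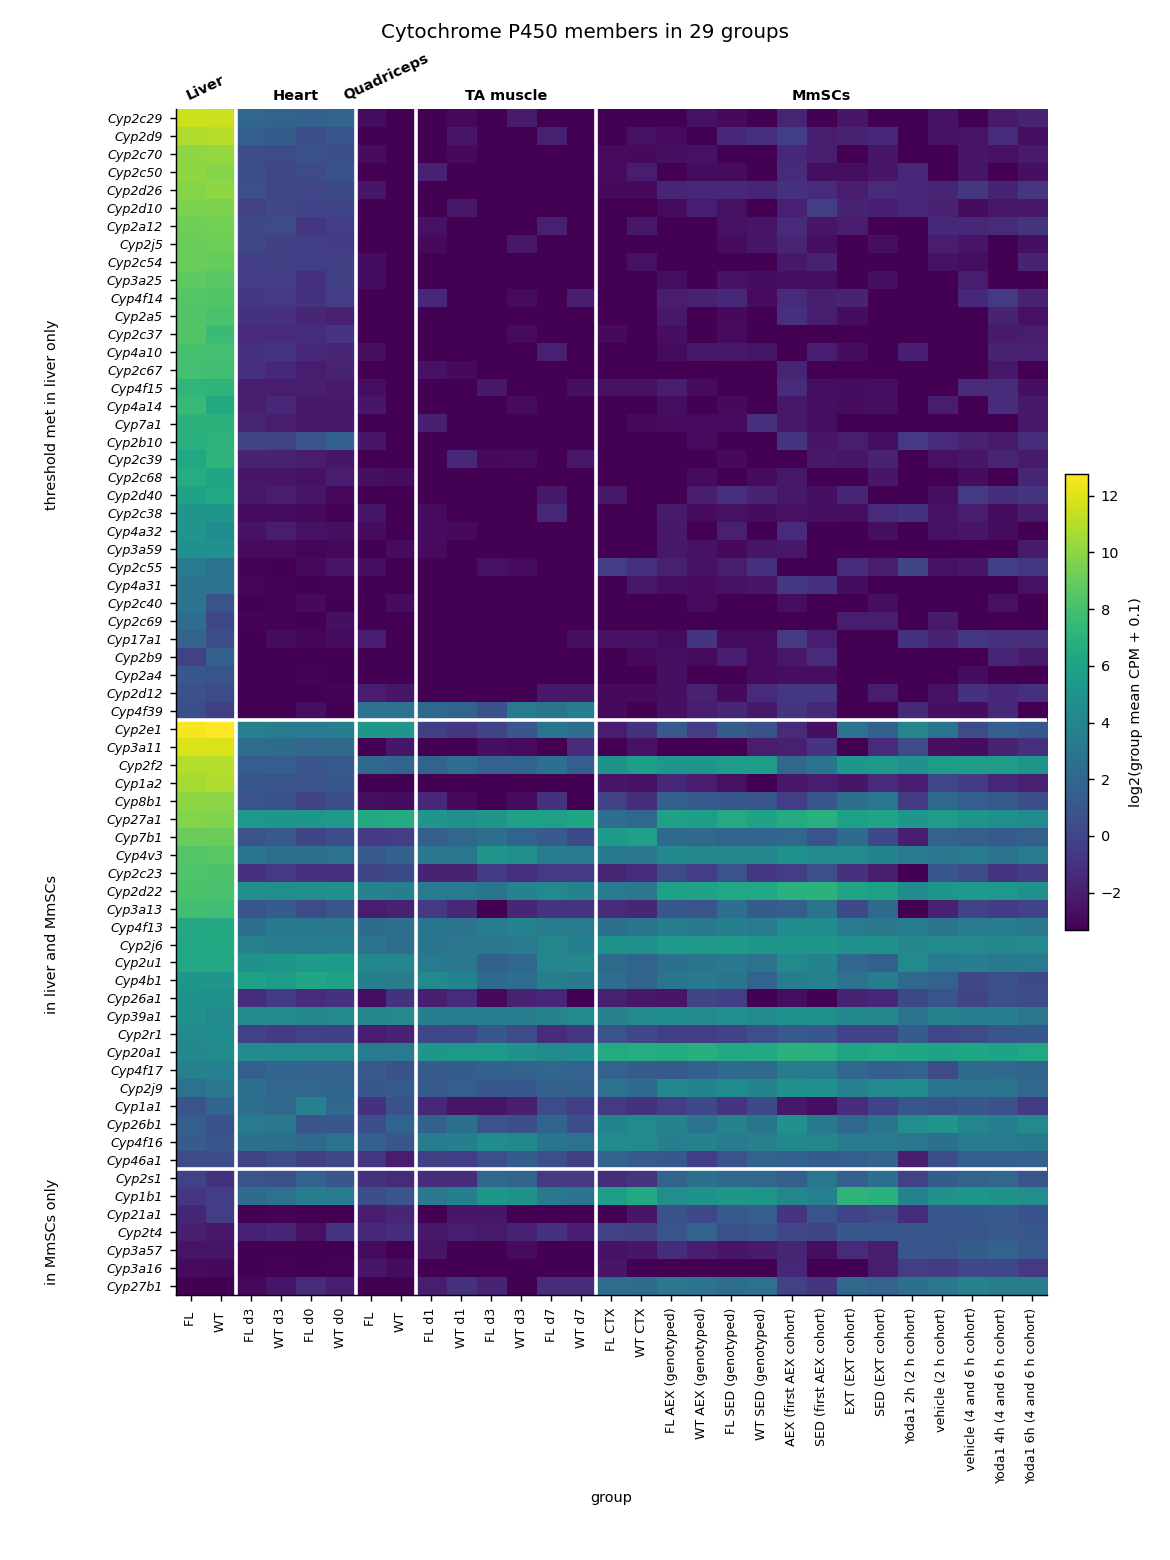
Group means of the 66 members (rows) in 29 groups (columns) as log2(mean CPM + 0.1), with members grouped by where they met the threshold and ordered by liver level. Liver-only members stay under 1 CPM in muscle and MmSCs, other than Cyp4f39 in muscle, and are faint in heart, while members such as Cyp27a1, Cyp20a1 and Cyp2d22 appear in all tissues.

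Per kilobase of exon, Cyp2e1 (chromosome 7 from 140763739 to 140774987, mm10), which oxidises ethanol and other small molecules in pericentral hepatocytes, led the family in liver. Its level was 8862, 4571, 5831 and 5178 CPM in the FL livers, against 7565, 8203, 6248 and 5938 CPM in the WT livers. FL replicate 1 was the highest of all 8 and FL replicate 2 the lowest, and the groups overlapped. The mean was 6111 ± 1905 CPM in FL and 6988 ± 1074 CPM in WT livers (SD, n = 4 each), a log2 difference of -0.19 (edgeR, adjusted p = 0.999).

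The other members of the top 10 per kilobase were, in that order, Cyp2f2, Cyp2c29, Cyp1a2, Cyp3a11, Cyp2d9, Cyp2c70, Cyp2d26, Cyp8b1 and Cyp2d10, and the 10 together held 72.9% of the members' CPM. Cyp2f2, an enzyme of periportal hepatocytes that activates naphthalene, had 983.8 CPM per kb over the 8 livers, against 3035 CPM per kb for Cyp2e1. Cyp2f2 measured 1927 ± 302 CPM in FL and 2057 ± 131 CPM in WT livers. Cyp1a2, a target of AHR that oxidises caffeine and aromatic amines, measured 1652 ± 408 CPM in FL and 1823 ± 91.97 CPM in WT livers. Cyp3a11, the main steroid and drug oxidase of its subfamily in mouse liver, measured 3884 ± 1339 CPM in FL and 3962 ± 445 CPM in WT livers. In each of the 3 the FL livers spread more widely than the WT livers, and the ranges overlapped.

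Cyp2c29, of the Cyp2c cluster that oxidises drugs and arachidonic acid, ran 4736, 1696, 2737 and 2566 CPM in the FL livers, against 3218, 3662, 2101 and 2470 CPM in the WT livers. Cyp2c70, which makes the muricholic acids of mouse bile, ran 1562, 930.9, 883.8 and 834.2 CPM in the FL livers, against 1486, 1157, 1197 and 932.0 CPM in the WT livers. Cyp8b1, the sterol hydroxylase that sets the share of cholic acid, ran 933.2, 864.4, 1092 and 1386 CPM in the FL livers, against 865.7, 998.4, 1149 and 1023 CPM in the WT livers. FL replicate 1 was the highest library for Cyp2c29 and Cyp2c70 but not for Cyp8b1. Across the 45 members at 10 CPM or more in liver, this library held the highest value for 26, and FL replicate 2 the lowest value for 16.

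Cyp2d9, a male-biased steroid hydroxylase, measured 1884 ± 371 CPM in FL and 2131 ± 568 CPM in WT livers. Cyp2d26 measured 911 ± 172 CPM in FL and 1030 ± 46.4 CPM in WT livers, and Cyp2d10 784 ± 170 CPM in FL and 787 ± 56.6 CPM in WT livers. The rate-limiting enzyme of bile acid synthesis, Cyp7a1, measured 129 ± 26.2 CPM in FL and 129 ± 53.1 CPM in WT livers. Cyp27a1, the mitochondrial sterol hydroxylase of the alternative pathway, was among the steadiest, at 881 ± 63.1 CPM in FL and 848 ± 52.0 CPM in WT livers. Cyp1b1 was nearly absent from liver, with 0.492 ± 0.339 CPM in FL and 0.674 ± 0.290 CPM in WT livers.

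**Figure D2:**
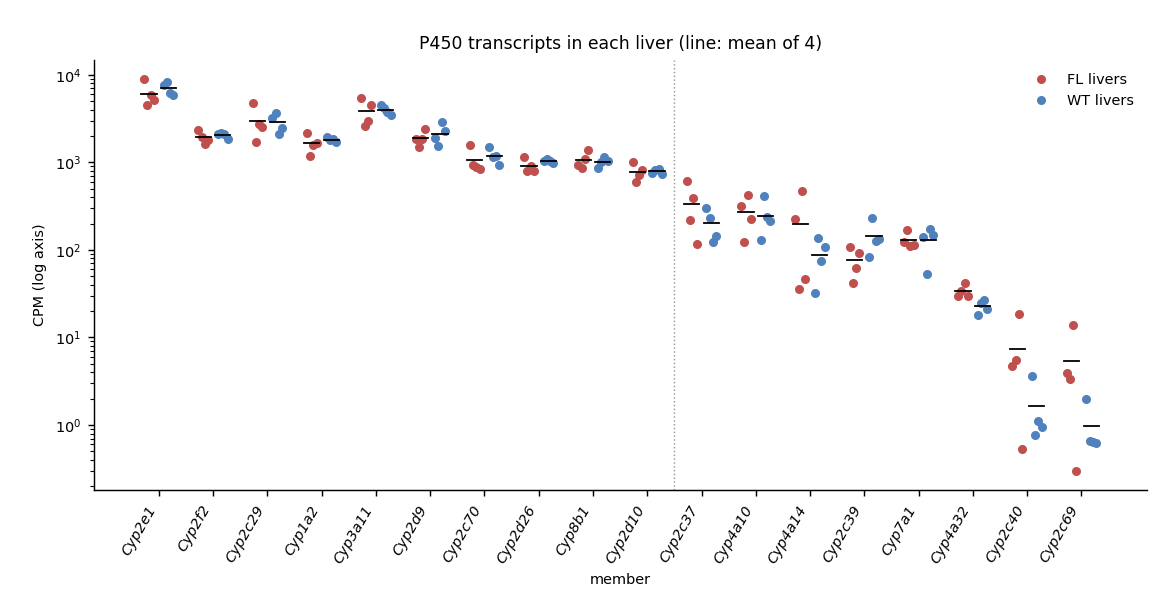
CPM on a log axis in each of 8 livers for the 10 members highest per kilobase (left of the dotted line) and 8 further members chosen after their values were seen (right), FL left of WT, with lines at the mean of 4. The groups overlap for each member drawn other than Cyp4a32, and Cyp4a14, Cyp2c40 and Cyp2c69 spread most.

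Of 62 members tested in liver, 0 were called different between FL and WT livers by edgeR's quasi-likelihood test at an adjusted p under 0.05, beside 0% of 14534 genes. DESeq2 also called 0 of the 62 members. At an unadjusted p under 0.05, 4 members passed in edgeR, while 3.61% of all genes did. The median log2 difference of the members was 0.04, against 0.01 over all genes, with 33 members above 0 and 29 below. Over the 10 members highest per kilobase, log2 differences lay between -0.19 and 0.08, and their 95% intervals reached at their widest from -0.62 to 0.62. In whole tissue, fewer cells of a type and less RNA per cell cannot be told apart. The 6 stromal markers summed to 185 to 252 CPM in liver, of which Dcn alone held 158 to 210 CPM. Pdgfra, which marks the cells in which the Cre acts, measured 3.44 to 11.9 CPM. Their part in the lack of calls was not tested.

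The 4 members with the smallest unadjusted p were chosen after their values were seen. Cyp4a32, of the fatty acid hydroxylases, ran 30.0, 34.0, 41.8 and 30.1 CPM in the FL livers, against 18.3, 25.1, 27.1 and 21.2 CPM in the WT livers (log2 0.57, SE 0.17, unadjusted p = 0.00532, edgeR adjusted p = 0.999). It was the only member tested in liver whose groups did not overlap, but the share of all genes without overlap was not computed. Cyp4a32 shares 43.8% of its 50-base exon windows with other genes, mostly Cyp4a10, so its counts are uncertain. Cyp2c39, a retinoic acid hydroxylase, ran 108, 42.4, 63.0 and 91.7 CPM in the FL livers, against 82.5, 229, 127 and 133 CPM in the WT livers (log2 -0.90, unadjusted p = 0.0175, edgeR adjusted p = 0.999). The female-biased pair Cyp2c40 and Cyp2c69 reached 18.7 and 13.7 CPM in FL replicate 3, and in the other FL livers lay between 0.534 and 5.49 CPM and between 0.3003 and 3.92 CPM. In the WT livers they lay between 0.778 and 3.68 CPM and between 0.617 and 1.99 CPM. Their log2 differences were 2.18 (unadjusted p = 0.0241) and 2.45 (unadjusted p = 0.0124), with an edgeR adjusted p of 0.999 for both, and without FL replicate 3 they were 1.14 and 1.39. Cyp2c40 and Cyp2c69 share 60.3% and 54.3% of their windows with other genes, each mostly with the other. In all, 17 of the 66 members share at least 20% of their windows, most of them in the Cyp2c, Cyp2d, Cyp3a and Cyp4a clusters.

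**Figure D3:**
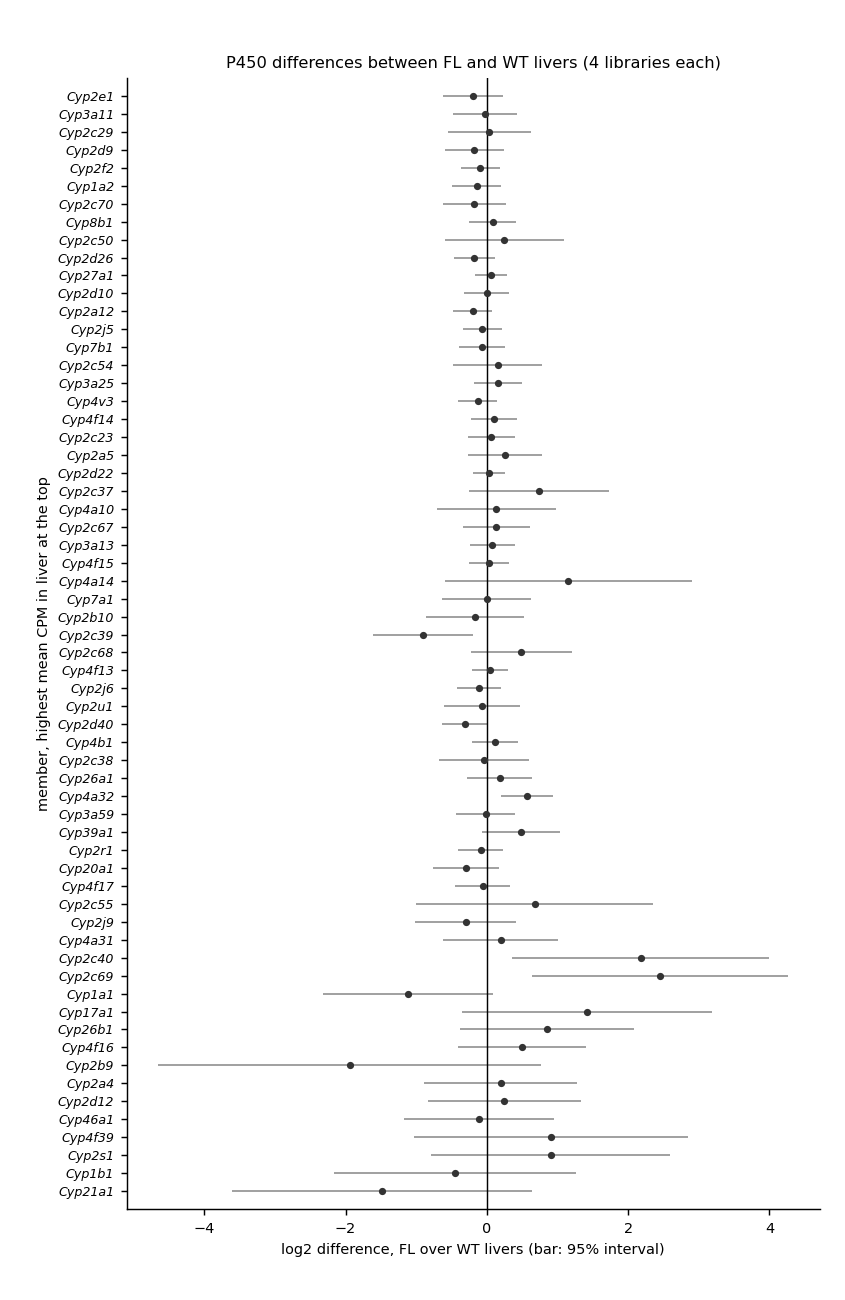
Log2 difference of FL over WT livers (x axis) with 95% intervals from edgeR for the 62 members tested (y axis, highest liver level at the top). Intervals are narrow and close to 0 for the abundant members, and only the 4 members with an unadjusted p under 0.05 have an interval that leaves 0 out.

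Among members at 10 CPM or more, those that varied most between livers belonged to the Cyp4a and Cyp2c clusters. Cyp4a14, a target of the fatty acid receptor PPARA, ran 225, 36.1, 476 and 46.6 CPM in the FL livers, against 32.2, 136, 75.1 and 109 CPM in the WT livers. Cyp4a10, of the same cluster, ran 319, 122, 419 and 224 CPM in the FL livers, against 130, 412, 235 and 211 CPM in the WT livers. The SD of log2 CPM over the 8 livers was 1.35 for Cyp4a14, 0.842 for Cyp2c37, 0.731 for Cyp2c39 and 0.676 for Cyp4a10. FL and WT livers overlapped for both genes.

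Genes that work with the family in liver were not called either. As 0 of 14534 genes were called in this comparison, each count in this paragraph was bound to be 0. Of 12 tested genes of the redox partners and haem pathway, 0 were called (median log2 -0.10). Alas1, which starts haem synthesis, had the smallest p among them, at 176 CPM in FL and 315 CPM in WT livers (log2 -0.83, edgeR adjusted p = 0.999), and Cyb5r3, cytochrome b5 reductase, was next, at 895 CPM in FL and 1060 CPM in WT livers. Of 25 genes tested on the list of regulators, 0 were called (median log2 0.10). Bcl6, a repressor active in male liver, had the smallest p, with 9.84, 61.6, 41.0 and 42.4 CPM in the FL livers, against 6.19, 12.3, 13.01 and 12.04 CPM in the WT livers (log2 1.83, edgeR adjusted p = 0.999), and the groups overlapped through FL replicate 1. Of 35 bile acid and conjugation genes tested, 0 were called (median log2 -0.04), and those with the smallest p were the bilirubin exporter Abcc2 (225 CPM in FL, 190 CPM in WT livers) and the epoxide hydrolase Ephx2 (793 CPM in FL, 913 CPM in WT livers). Of 18 male-biased genes tested 0 were called (median log2 0.03), of 10 female-biased genes 0 (median log2 0.50), and of 4 sex-linked genes 0. The zones of the liver lobule were likewise uncalled, with 0 of 13 pericentral genes (median log2 -0.13) and 0 of 13 periportal genes (0.06), as were 0 of 15 PPARA targets (-0.09), 0 of 7 AHR targets (-0.14), 0 of 16 clock genes (0.11) and 0 of 15 acute phase genes (-0.10).

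Heart held 32 members at 1 CPM or more in some group, with most of the liver-rich ones at a low and common fraction of their liver level. Over the 31 members at 100 CPM or more in liver, the median heart level was 1.29 per 1000 of the liver level, and over the 6 hepatocyte markers it was 1.16 per 1000 (1.12 to 1.22). Of the 31, 25 lay within the markers' range widened by a factor of 2, 6 lay above it and 0 below. Cyp3a11 measured 5.75, 4.39 and 5.61 CPM in FL hearts at day 3, 4.33, 6.82 and 3.82 CPM in WT hearts at day 3, 5.22, 2.56 and 3.84 CPM in FL hearts at day 0, and 6.92, 3.11 and 3.87 CPM in WT hearts at day 0. By library, the members' median ran between 0.651 and 1.76 per 1000 and the markers' between 0.559 and 1.58 per 1000, with FL day 0 replicate 3 lowest and WT day 0 replicate 2 highest in both. All 6 hepatocyte markers were above 0 in every heart group, and their part in these levels was not tested.

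**Figure D4:**
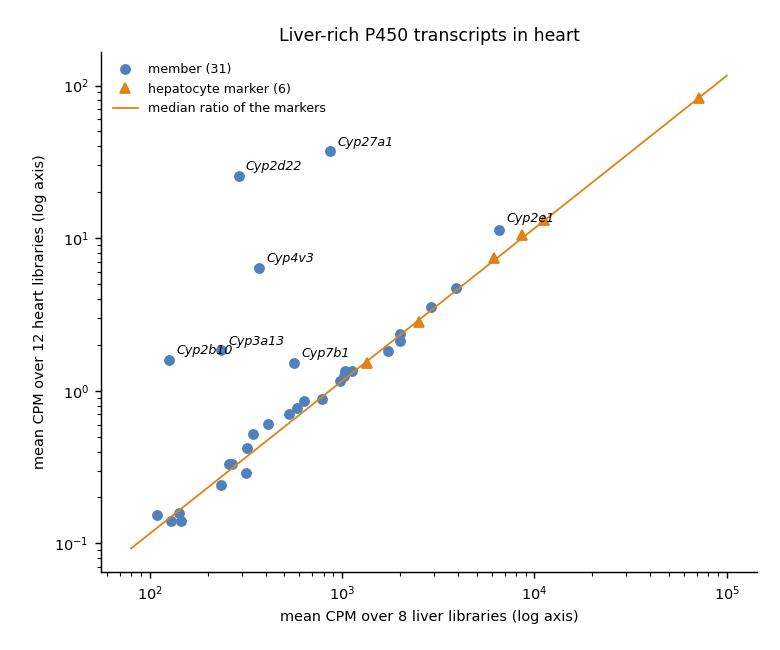
Mean CPM over 12 heart libraries (y, log axis) against mean CPM over 8 liver libraries (x, log axis) for the 31 members at 100 CPM or more in liver and 6 hepatocyte markers, with a line at the markers' median ratio. Most members lie on the line, and Cyp27a1, Cyp2d22, Cyp4v3, Cyp2b10, Cyp3a13 and Cyp7b1 lie above it.

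The 6 members above that range were Cyp2d22 (88.7 per 1000), Cyp27a1 (43.0), Cyp4v3 (17.2), Cyp2b10 (12.6), Cyp3a13 (7.88) and Cyp7b1 (2.7). Cyp2e1 stood at 1.74 per 1000. Per kilobase the order in heart was Cyp4b1, a lung and kidney type fatty acid hydroxylase (26.6 CPM per kb averaged over groups), then Cyp27a1 (17.1), the orphan Cyp20a1 (8.89), the arachidonic acid hydroxylase Cyp2u1 (6.97), Cyp2d22 (6.56) and the oxysterol hydroxylase Cyp39a1 (6.10). Cyp2e1 measured 12.8 ± 4.43 CPM in FL and 10.8 ± 1.59 CPM in WT hearts at day 3, and 9.92 ± 3.03 CPM in FL and 11.9 ± 2.97 CPM in WT hearts at day 0. Cyp1b1, which oxidises oestrogens and retinol, measured 4.95 ± 2.97 CPM in FL and 6.24 ± 3.09 CPM in WT hearts at day 3, and 11.7 ± 2.53 CPM in FL and 10.2 ± 2.35 CPM in WT hearts at day 0 (SD, n = 3 each).

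Between genotypes, 0 of 44 members tested in heart were called by edgeR at day 3, beside 3.92% of genes, and 0 at day 0, beside 0% of genes. At an unadjusted p under 0.05, 2 members passed at day 3, beside 21.6% of genes, and 2 at day 0, beside 4.22%, and DESeq2 called 0 at each day. Between days, 1 of the 44 was called, as higher, in FL hearts, beside 4.75% of genes (2.05% higher), and 0 in WT hearts, beside 0.103% of genes (3 at an unadjusted p under 0.05, beside 5.37%, and 0 by DESeq2). The member called was Cyp26b1, which breaks down retinoic acid. It measured 10.8, 4.42 and 14.2 CPM in FL hearts at day 3, against 3.28, 0.891 and 1.19 CPM in FL hearts at day 0 (log2 2.46, SE 0.65, edgeR adjusted p = 0.0465). In WT hearts it measured 18.5, 3.15 and 4.38 CPM at day 3, against 1.75, 2.31 and 1.71 CPM at day 0 (log2 2.17, edgeR adjusted p = 0.529). The days did not overlap in either genotype, and the difference between the genotypes was not called (log2 0.28, edgeR adjusted p = 0.945). The call in FL hearts was lost without replicate 1 of day 3 (edgeR adjusted p = 0.0812), without replicate 3 of day 3 or replicates 2, 3 or 4 of day 0 (0.0729 to 0.174), and with only the compared hearts fitted (0.143). Without the library low in Y-linked transcripts, 1 member was called between genotypes at day 3 and 3 between days in FL hearts. Of 23 genes tested on the list of regulators, 1 was called between days in FL hearts: the lipid receptor Ppara was lower in FL hearts at day 3 than at day 0 (22.2 against 47.0 CPM, log2 -1.08, edgeR adjusted p = 0.0281). Of 30 bile acid and conjugation genes tested, 1 was called between genotypes at day 3: Gstm1, a glutathione transferase, was higher in FL than in WT hearts at day 3 (325 against 248 CPM, log2 0.39, edgeR adjusted p = 0.0483).

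In uninjured quadriceps 19 members reached 1 CPM and Cyp27a1 led per kilobase (42.4 CPM per kb), followed by Cyp2e1 (16.1). Cyp2e1 measured 30.1, 36.4 and 42.0 CPM in FL, against 30.4, 34.6 and 34.3 CPM in WT quadriceps, the highest levels outside liver. Hepatocyte markers summed to at most 0.993 CPM there. The 6 adipocyte markers summed to 175 to 253 CPM in FL and 214 to 255 CPM in WT quadriceps, above the heart (5.10 to 14.3 CPM), and their part in the level of Cyp2e1 was not tested. Cyp1b1 was low, at 1.34 ± 0.267 CPM in FL and 1.76 ± 0.171 CPM in WT quadriceps. Of 17 members tested, 0 were called between FL and WT quadriceps by edgeR, beside 0% of genes, 0 passed an unadjusted p under 0.05, beside 6.5%, and DESeq2 called 0.

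In TA muscle after CTX, members changed with the day of recovery in both genotypes. Of 21 members tested in WT muscle, 7 rose and 3 fell at day 3 against day 1, beside 26.8% of genes called (14.1% higher, 12.7% lower), and 3 rose and 7 fell at day 7 against day 3, beside 42.5% (20.1% higher, 22.4% lower). In FL muscle 4 rose and 2 fell at day 3 against day 1, beside 44.6% (22% higher, 22.6% lower), and 7 rose and 7 fell at day 7 against day 3, beside 52.7% (25.8% higher, 27% lower). The first step called Cyp1b1, Cyp2s1, Cyp2u1, Cyp4b1 and Cyp4v3 in both genotypes, each in the same direction. Marker sums moved with the days as well. Muscle fibre markers summed to 68967 to 112836 CPM in FL and 74018 to 92850 CPM in WT muscle at day 1, 4053 to 15027 CPM in FL and 32435 to 54909 CPM in WT at day 3, and 163700 to 214329 CPM in FL and 182253 to 218721 CPM in WT at day 7. Leukocyte markers were highest at day 3, at 6748 to 7378 CPM in FL and 5510 to 7055 CPM in WT muscle. Their part in the members' changes was not tested.

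Cyp1b1 peaked at day 3. In FL muscle it measured 8.34 ± 1.17 CPM at day 1 (n = 4), 36.4 ± 1.13 CPM at day 3 and 8.90 ± 4.98 CPM at day 7 (n = 3 each), and in WT muscle 12.04 ± 2.93, 29.9 ± 17.5 and 6.76 ± 4.56 CPM. The step to day 3 was a log2 difference of 2.12 in FL (edgeR adjusted p = 8.67e-05) and 1.31 in WT muscle (0.0103), and the step to day 7 was -2.04 in FL (0.000269) and -2.13 in WT muscle (0.000305). In WT muscle at day 3 replicate 1 stood at 50.1 CPM, against 19.2 and 20.5 CPM in the others, and without it the step from day 1 was not called (log2 0.72, adjusted p = 0.172). Cyp4v3, a fatty acid hydroxylase, also peaked at day 3, at 33.9 ± 4.77 CPM in FL and 25.7 ± 3.62 CPM in WT muscle, with 8.39 ± 3.06 CPM in FL and 8.27 ± 2.68 CPM in WT at day 1. Cyp2s1, at 3.97 ± 0.712 CPM in FL and 3.42 ± 0.713 CPM in WT muscle at day 3, had the same course. Its fall at day 7 was not called without replicates 1 or 2 of day 7 in FL muscle (edgeR adjusted p = 0.0658 and 0.0669), nor without replicates 2 or 3 of day 7 or replicate 2 of day 3 in WT muscle (0.0749 to 0.108). Cyp4f16, of the leukotriene and fatty acid hydroxylases, rose at day 3 in FL muscle (log2 0.98, edgeR adjusted p = 0.00163) and fell at day 7 in FL (-1.56, adjusted p = 2.68e-05) and WT muscle (-1.45, adjusted p = 0.000116).

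Cyp4b1 and Cyp2u1 took the opposite course. Cyp4b1 measured 17.2, 20.1, 13.5 and 25.9 CPM in FL and 14.5, 15.4, 15.4 and 15.3 CPM in WT muscle at day 1. At day 3 it measured 5.34, 3.93 and 4.36 CPM in FL and 4.57, 6.15 and 5.58 CPM in WT muscle, below every day 1 library (log2 -2.09 in FL, edgeR adjusted p = 2.8e-07; -1.47 in WT, 5.46e-05). Cyp2u1 rose again to 15.9 ± 0.761 CPM in FL and 17.9 ± 4.95 CPM in WT muscle at day 7, against 3.07 ± 1.21 CPM in FL and 4.11 ± 1.63 CPM in WT at day 3. Cyp2e1 rose in FL muscle at day 7 (7.45 ± 4.05 CPM) against day 3 (0.879 ± 0.182 CPM, log2 3.08, edgeR adjusted p = 0.00109). In WT muscle it measured 5.28 ± 0.626 CPM at day 7 and 1.92 ± 1.18 CPM at day 3. That step was not called in WT muscle, although the groups did not overlap. At day 1 it measured 0.728 ± 0.514 CPM in FL and 0.482 ± 0.678 CPM in WT muscle. Adipocyte markers summed to 92.4 to 602 CPM in FL and 56.9 to 212 CPM in WT muscle at day 7, against 13.1 to 47.2 CPM in FL and 45.2 to 60.1 CPM in WT at day 3, and their part was not tested. Other members called in a step were Cyp26b1, Cyp27a1, Cyp4f13, Cyp4f39 and Cyp46a1 at day 3 against day 1 in WT muscle, Cyp20a1, Cyp39a1, Cyp46a1 and Cyp7b1 at day 7 against day 3 in WT muscle, and Cyp20a1, Cyp27a1, Cyp2d22, Cyp2j6, Cyp2r1, Cyp4f39 and Cyp7b1 at that step in FL muscle. Of these, Cyp4f39 at day 3 in WT muscle (log2 1.42) was not called without any of 5 single libraries (day 3 replicates 2 and 3, day 1 replicates 1, 2 and 3; edgeR adjusted p 0.0547 to 0.221), nor at day 7 in FL muscle (log2 2.04) without day 7 replicate 2 (0.181). Cyp46a1, which hydroxylates cholesterol, was not called at day 3 without day 3 replicate 2 or day 1 replicate 1 (0.0746 and 0.057), nor at day 7 without replicates 1 or 3 of day 7 or 1 or 2 of day 3 (0.0526 to 0.132). At day 7 in WT muscle Cyp7b1 was not called without replicates 1 or 2 of day 7 or 1 or 3 of day 3 (0.0758 to 0.13), nor Cyp39a1 without replicate 2 of day 3 (0.0664).

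Between genotypes in TA muscle, 2 of 21 members were called lower in FL than in WT muscle at day 3, beside 8.99% of genes called in either direction and 6.37% lower. Cyp27a1 measured 25.3, 30.9 and 45.2 CPM in FL, against 54.0, 64.0 and 58.4 CPM in WT muscle (log2 -0.79, edgeR adjusted p = 0.0419). Cyp4f39, a fatty acid hydroxylase that makes skin lipids, measured 0.345, 2.695 and 1.65 CPM in FL, against 5.53, 7.59 and 14.7 CPM in WT muscle (log2 -2.43, edgeR adjusted p = 0.00875). FL lay below WT in every library for both. Neither was called with only the day 3 libraries fitted (adjusted p = 0.0952 and 0.0579). Cyp27a1 was not called without any of 4 single libraries, FL replicates 1 and 2 and WT replicates 2 and 3 (0.122 to 0.161), nor Cyp4f39 without WT replicate 3 (0.0809). The lower muscle fibre sums of FL muscle at day 3, given above, moved with these calls, and their part was not tested. At day 1 and at day 7, 0 of the 21 were called by edgeR, beside 0.0774% and 0% of genes, with 0 and 2 at an unadjusted p under 0.05, beside 5.76% and 4.75%, and DESeq2 called 0 at both. Listed genes lower in FL muscle at day 3 included the nuclear receptor Rora (23.999 against 44.2 CPM), the growth hormone effector Stat5b (31.9 against 77.3 CPM), the carboxylesterase Ces1d (0.322 against 8.05 CPM) and Ephx2 (5.22 against 9.19 CPM), with edgeR adjusted p values between 0.000463 and 0.0452. They are examples from the lists, beside the 6.37% of all genes called lower.

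The members highest in MmSCs were mostly not those highest in liver. Among the 10 highest per kilobase in TA muscle were also Cyp20a1, Cyp27a1, Cyp2d22, Cyp2j6, Cyp1b1 and Cyp39a1. Averaged over the 15 MmSC groups, the highest per kilobase were Cyp20a1 (38.2 CPM per kb), Cyp27a1 (23.9), Cyp2f2 (17.4), Cyp2d22 (14.2), Cyp2j6 (8.13), Cyp1b1 (7.86) and Cyp39a1 (5.66). In CPM the first 8 were Cyp20a1, Cyp2d22, Cyp27a1, Cyp1b1, Cyp2f2, Cyp2j6, Cyp39a1 and Cyp26b1. Of these, Cyp2f2 was also among the 10 highest per kilobase in liver. Averaged over groups, Cyp2f2, Cyp27a1, Cyp2d22, Cyp2j6 and Cyp39a1 stood higher in liver than in MmSCs in CPM. Cyp1b1, Cyp20a1 and Cyp26b1 stood higher in MmSCs than in liver. Hepatocyte markers summed to at most 10.1 CPM and leukocyte markers to at most 13.8 CPM in any MmSC library, and endothelial markers to between 17.3 and 484 CPM.

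Cyp1b1 levels were far apart between cohorts. It measured 140 ± 22.7 CPM after EXT and 123 ± 8.53 CPM in the SED controls of that cohort, 16.8 ± 4.44 CPM after AEX and 12.6 ± 1.24 CPM in SED controls of the first AEX cohort. In the genotyped cohort it measured 23.7 ± 8.09 CPM in FL and 29.5 ± 12.03 CPM in WT cells after AEX, and 36.9 ± 26.2 CPM in FL and 32.5 ± 14.7 CPM in WT SED cells (SD, n = 3 each). The cohorts share no group, so treatment and cohort cannot be told apart between them. Cyp2e1 stayed at 2.53 ± 2.92 CPM or less in the freshly sorted cells of the AEX and CTX cohorts. It measured 6.22 ± 3.73 CPM after EXT and 3.00 ± 1.46 CPM in SED controls, and 16.1 ± 4.14 CPM (n = 2) after 2 h of Yoda1 against 7.58 ± 0.853 CPM with vehicle, a difference not called (edgeR adjusted p = 0.152).

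One day after CTX, 2 of 19 members tested were lower in FL than in WT MmSCs, beside 1.79% of genes called in either direction and 1.35% lower. Cyp1b1 (chromosome 17 from 79701537 to 79715061, mm10) measured 45.6, 50.5 and 60.04 CPM in FL, against 82.3, 102 and 83.3 CPM in WT cells (log2 -0.78, SE 0.12, edgeR adjusted p = 0.00303). Cyp2f2 (chromosome 7 from 27119909 to 27133660, mm10) measured 28.0, 30.2 and 35.2 CPM in FL, against 57.1, 47.7 and 51.6 CPM in WT cells (log2 -0.74, SE 0.12, edgeR adjusted p = 0.00457). FL lay below WT in every library for both, and both calls held when any one library was left out. Cyp7b1, the oxysterol hydroxylase that clears 25-hydroxycholesterol, measured 40.5, 47.3 and 44.6 CPM in FL, against 61.3, 64.3 and 53.3 CPM in WT cells (log2 -0.43, edgeR adjusted p = 0.0603), short of the threshold. The median log2 difference of the 19 members was 0.15, against 0.01 over all genes. Leukocyte markers summed to 11.96 to 12.6 CPM in FL and 5.55 to 7.22 CPM in WT cells, and stromal markers to 17555 to 19458 CPM in FL and 19251 to 21577 CPM in WT cells, and their part was not tested. Of 12 redox partners and haem enzymes tested, 1 was higher and 0 were lower: Cyb5a, cytochrome b5, was higher in FL than in WT cells (335 against 262 CPM, log2 0.36, edgeR adjusted p = 0.0133).

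After CTX the levels of several members lay outside the range of the 13 other MmSC groups, which is a description across cohorts. Cyp27a1 averaged 5.18 CPM in FL and 4.06 CPM in WT cells after CTX, against 21.7 to 119 CPM in the others. Cyp2d22 averaged 9.29 CPM in FL and 8.15 CPM in WT cells after CTX, against 21.5 to 132 CPM. Cyp7b1 averaged 44.1 CPM in FL and 59.6 CPM in WT cells after CTX, against 0.153 to 5.17 CPM. None of the other groups was an uninjured control of the CTX cohort.

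After 6 h of Yoda1, 4 of 25 members were lower than with vehicle, beside 13.2% of genes called in either direction and 6.72% lower. Cyp2d22 measured 28.3, 25.6 and 27.4 CPM after 6 h of Yoda1, against 44.6, 37.1 and 39.3 CPM with vehicle (log2 -0.57, SE 0.14, edgeR adjusted p = 0.00334). Cyp2f2 measured 29.6, 34.9 and 31.7 CPM after 6 h, against 41.3, 44.6 and 52.4 CPM with vehicle (log2 -0.53, SE 0.13, edgeR adjusted p = 0.00505). Every treated library lay below every vehicle library for both. Cyp27a1 measured 20.6, 25.2 and 19.2 CPM after 6 h, against 31.8, 28.9 and 35.2 CPM with vehicle (log2 -0.56, edgeR adjusted p = 0.00832), and Cyp1b1 22.0, 22.4 and 27.7 CPM, against 38.3, 34.9 and 31.9 CPM (log2 -0.54, edgeR adjusted p = 0.0119). Neither pair of groups overlapped. Cyp1b1 was not called without vehicle replicate 1 or Yoda1 replicates 1 or 2 (adjusted p 0.0647 to 0.076), nor Cyp27a1 without vehicle replicate 3 or Yoda1 replicate 3 (0.0534 and 0.0637).

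At 4 h, 0 of the 25 members were called by edgeR, beside 5.71% of genes, with 2 at an unadjusted p under 0.05, beside 17.8%, and 0 called by DESeq2. At 2 h, 0 of 21 were called, beside 11.2% of genes, with 7 at an unadjusted p under 0.05, beside 27.4%, and 1 called by DESeq2. The 2 h group has only 2 libraries, and without its replicate 1 the count was 7, without its replicate 2 it was 1. For Cyp1b1 the values were 16.5 and 11.1 CPM at 2 h, against 32.6, 29.1 and 22.9 CPM with vehicle of that cohort (log2 -1.01, edgeR adjusted p = 0.0911), and 34.1, 24.2 and 32.0 CPM at 4 h. For Cyp2d22 they were 14.4 and 28.5 CPM at 2 h, against 31.7, 40.0 and 39.4 CPM with vehicle (log2 -0.82, edgeR adjusted p = 0.153), and 45.4, 33.0 and 38.1 CPM at 4 h. The 4 h and 6 h groups share their vehicle libraries. Stromal markers summed to 37549 to 39395 CPM after 6 h, against 49507 to 54882 CPM with vehicle, and their part was not tested. Of 12 redox partners and haem enzymes tested, 4 rose and 0 fell at 6 h, beside the 13.2% of all genes called in either direction. Those that rose included Hmox1, which degrades haem (4857 against 3763 CPM, log2 0.37, edgeR adjusted p = 1.16e-06), and Cyb5a (379 against 310 CPM, log2 0.29, adjusted p = 0.000305). Of 17 genes tested on the list of regulators, 1 rose and 1 fell. The oestrogen receptor Esr1 fell (37.1 against 57.8 CPM, log2 -0.64, edgeR adjusted p = 0.000224). Nqo1, a quinone reductase and so an enzyme on that list, rose (28.99 against 19.04 CPM, log2 0.61, edgeR adjusted p = 0.0101). Of 15 bile acid and conjugation genes tested, 1 rose and 3 fell: Gstm1, Ephx1 and Fmo1 fell (log2 -0.50, -0.44 and -0.32) and Gstp1 rose (0.41), with edgeR adjusted p values between 1.54e-05 and 0.0101.

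**Figure D5:**
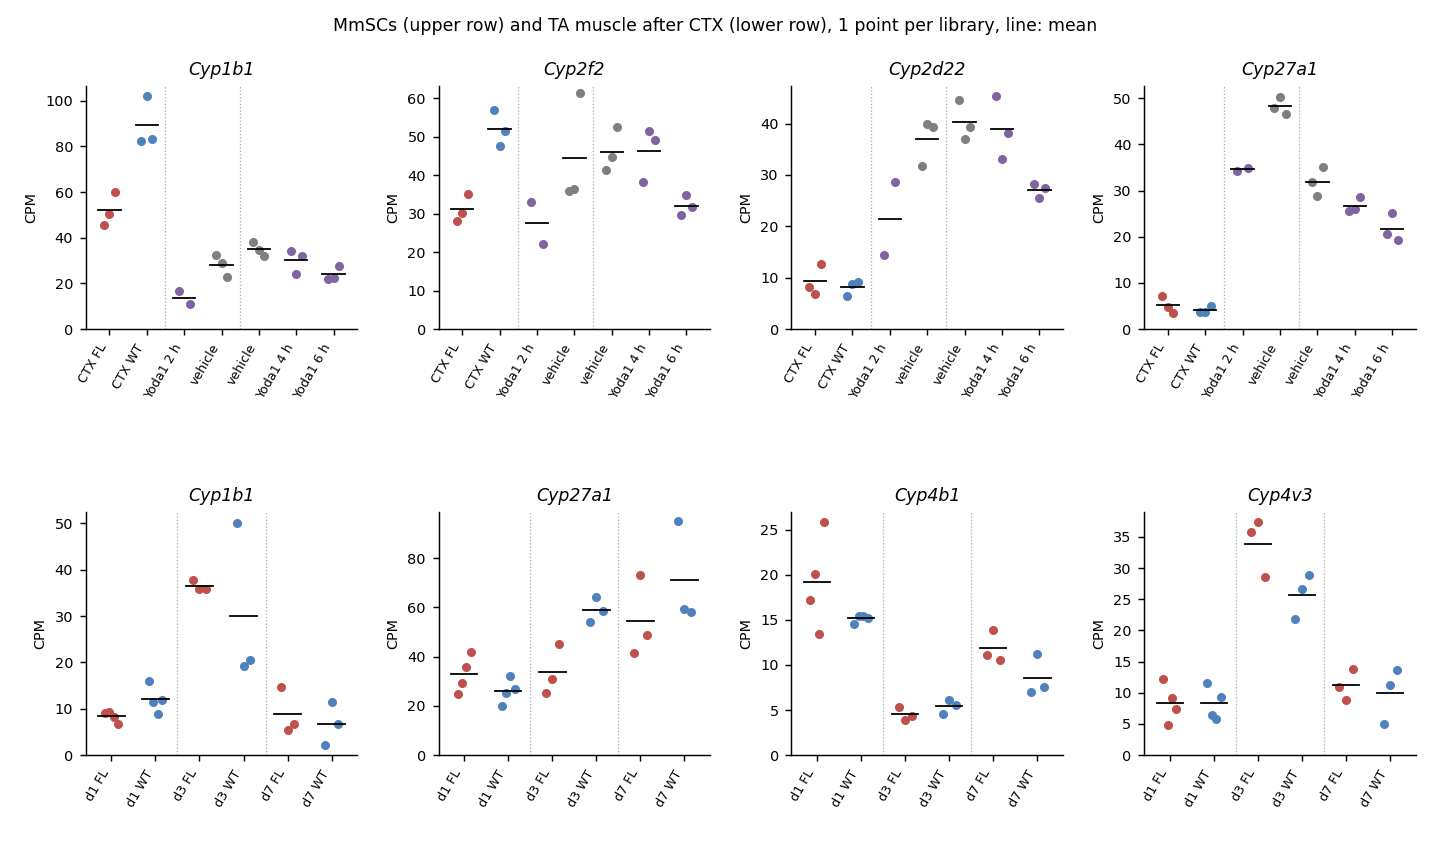
CPM in each library (points) with the group mean (line). The upper row shows Cyp1b1, Cyp2f2, Cyp2d22 and Cyp27a1 in MmSCs after CTX, with Yoda1 at 2 h beside its own vehicle, and in the cohort of vehicle, 4 h and 6 h; the lower row shows Cyp1b1, Cyp27a1, Cyp4b1 and Cyp4v3 in TA muscle on days 1, 3 and 7 after CTX, FL left of WT. FL cells lie below WT cells after CTX for Cyp1b1 and Cyp2f2, and all 4 genes are lower after 6 h of Yoda1 than with vehicle.

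Exercise left the members uncalled by edgeR in MmSCs. After AEX, 0 of 20 members were called in the first cohort, beside 0.736% of genes, with 2 at an unadjusted p under 0.05, beside 14.9%. With the replicate number as a block, which takes up the split in sex-linked transcripts, the count in that cohort was also 0. In FL cells 0 of 27 were called after AEX, beside 0.162%, with 3 at an unadjusted p under 0.05, beside 7.93%, and in WT cells 0 of 27, beside 1.01%, with 4 against 12.3%. After EXT, 0 of 23 were called, beside 0.484% of genes, with 4 at an unadjusted p under 0.05, beside 12.3%. DESeq2 called 0 members in the first AEX cohort, 0 in FL and 1 in WT cells after AEX, and 2 after EXT. Between genotypes 0 of 27 were called by edgeR after AEX, beside 0% of genes (1 at an unadjusted p under 0.05, beside 5.49%), and 0 of 27 in SED cells, beside 0.00675% (4, beside 7.38%), and DESeq2 called 0 in both. No member passed edgeR's threshold for a difference between genotypes in the response to AEX (0 of 27, beside 0% of genes, with 2 at an unadjusted p under 0.05, beside 5.96%). The same held in heart for the response to CTX (0 of 44, beside 0%, with 1 at an unadjusted p under 0.05, beside 11.3%), and DESeq2 called 0 in each.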

How the data were processed

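The 90 libraries of liver, heart, muscle and sorted MmSCs were deposited as tables of raw counts per gene symbol. Per the submitters' processing notes, STAR 2.7.3a, featureCounts and mm10 were used by the authors; no source states how reads shared by paralogs were counted. Each cohort was fitted alone with edgeR 4.0.16 (R 4.3.3): filterByExpr at a minimum count of 10, TMM factors, robust quasi-likelihood tests, and Benjamini-Hochberg adjustment over all genes at 0.05. Lengths, positions and shared 50-base windows came from GENCODE M21 (mm10), promoters from RefSeq. The members and lists were chosen with earlier results of these data known. Genes are named as the 10 highest per kilobase in liver, the up to 8 largest called changes in a comparison, and the leading listed genes. DESeq2 1.42.0, other scaling, no filter, a replicate block, a Y-linked covariate and left-out libraries were alternatives. In the genotyped AEX cohort the titles and library names of the samples disagree. Library names go with the genotype and treatment fields and were followed, so its columns could be tied to a group only. The fits were tested on simulated data.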

Additional observations from a re-analysis of the deposited data

Results flagged for a closer look

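In 4 groups of 4 libraries, 48 pairs of a member and a group were examined for a library far from the other 3, and 4 were found, where chance gives about 1 in 20. Cyp2c70 stood at 1562 CPM in FL liver replicate 1, with the next FL liver at 930.9 CPM. Cyp2c69 stood at 1.99 CPM and Cyp2c40 at 3.68 CPM in WT liver replicate 1, with the next WT livers at 0.663 and 1.12 CPM. These genes share much of their sequence, so they are not independent observations. Cyp2s1 stood at 1.05 CPM in replicate 3 of FL TA muscle at day 1, with the next at 0.164 CPM.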

How the results depend on the processing

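With RLE scaling all 25 counts of called members and the 53 single-gene results kept their direction and side of the threshold. Counts moved by over 1.5 times as follows. Without a filter on low counts, 1 member was called between genotypes in heart at day 0, 1 between days in WT hearts, 4 between days in FL hearts (main count 1), 2 after AEX, 2 after EXT and 4 after CTX (main count 2). DESeq2 called 4 between days in FL hearts, 2 after EXT, 1 in WT cells after AEX and 1 after 2 h of Yoda1. With a replicate block, 1 member was called between genotypes in heart at day 3 and 3 between days in FL hearts, and with the Y-linked covariate likewise 1 and 3. With only the compared libraries fitted, 0 were called between days in FL hearts and 0 between genotypes in TA muscle at day 3. Leaving out single libraries gave 0 to 1 members between genotypes in heart at day 3 (1 without FL replicate 1), 0 to 3 between days in FL hearts, 0 to 3 between genotypes in TA muscle at day 3 (main count 2), 6 to 8 at day 7 against day 3 in WT muscle (6 without day 3 replicate 1 or 2), 0 to 1 after EXT (1 without EXT replicate 3), 0 to 1 between genotypes in SED cells (1 without WT replicate a), 2 to 4 after CTX (4 without WT replicate 3) and 0 to 7 after 2 h of Yoda1. The cause was not tested. In liver, no single library, block or covariate gave a called member.

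Among genes not called in liver, the sign of small log2 differences turned: Cyp2c29 to -0.019 with the block, Cyp3a11 to 0.11 and Cyp2d10 to 0.062 with the Y-linked covariate. Without single livers Cyp2c29 ranged from -0.29 to 0.22, Cyp3a11 from -0.23 to 0.12, Cyp2d10 from -0.14 to 0.10 and Cyp8b1 from -0.068 to 0.17. Cyp26b1 in FL hearts was not called with the block (edgeR adjusted p = 0.101) or the Y-linked covariate (0.0742), nor Cyp46a1 in WT TA muscle at day 7 without a filter (0.0664). Same-numbered samples deviated together in no comparison by the rule used (every r over 0.1), and in liver r lay between -0.0388 and 0.269. The main fits therefore did not treat samples as pairs. This rule cannot exclude pairing, since in the first AEX cohort sex-linked transcripts split by replicate number in both groups, as given above. Only for 6 h of Yoda1 did each library correlate best with its own number (r 0.00792 to 0.0354). No paired analysis was possible for the genotyped AEX cohort because its replicate numbers could not be tied to samples. With 2 to 4 libraries a group, and 1806248 counts in the shallowest MmSC library, low members are measured least well, and 17 of 66 members share at least 20% of their exon windows with other genes. Members at a membership threshold of 0.5 CPM would number 80, and at 2 CPM 61.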
